A study of Mus musculus with 11 samples.

Results

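The 10 genes of innate immune defence described here were followed across the cell populations of the mouse mammary gland: Lcn2, Ltf, Cd14, Tlr2, Tlr4, Lbp, Saa3, Pigr, C3 and Lyz2. They were chosen by name for their known roles in sensing and restraining bacteria, not by a measured value, and all 10 have a row among the 27179 genes counted. Ptprc, which encodes the leukocyte surface protein CD45, was read beside them as a check on RNA from blood cells.

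RNA-seq counts came from 11 libraries of single-end reads. Of these, 9 were made from mammary cells of wild-type virgin FVB/N females, labelled 8 weeks old, with 3 libraries each of MaSC/basal cells (CD24+CD29hi, enriched for mammary stem cells), luminal progenitor-enriched cells (LP, CD24+CD29loCD61+) and mature luminal-enriched cells (ML, CD24+CD29loCD61-), all sorted after depletion of cells carrying blood, endothelial and erythroid markers. A single mammosphere library was made from MaSC/basal cells of the same strain after 1 week of non-adherent culture. A further single library was made from Comma Dβ cells, an established line derived from the mammary gland of Balb/c mice in mid-pregnancy. The sorted fractions are enriched populations and not pure cell types, and neither cultured sample has a replicate. The labels place the libraries in 3 batches, with replicate 1 of each population and the mammosphere in batch 1, MaSC/basal replicates 2 and 3 with LP 2 and ML 2 in batch 2, and LP 3, ML 3 and Comma Dβ in batch 3. MaSC/basal replicate 1 is labelled wild type, but its submitted name contains p53.

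Between 19958838 and 75795034 reads were counted per library, so that 3 reads corresponded to between 0.0399 and 0.160 CPM (reads scaled to a common library total, here with TMM factors). The population markers followed the labels: all 4 basal markers (Krt5, Krt14, Trp63, Acta2) were called lower and all 4 luminal markers (Krt8, Krt18, Cdh1, Epcam) higher in luminal than in MaSC/basal cells, and all 4 mature luminal markers (Esr1, Pgr, Prlr, Foxa1) were called lower in LP than in ML. Among ML libraries, ML 2 had the highest level of all 4 progenitor markers. Itgb3, which encodes the CD61 used for the gate, was at 34.0 CPM in ML 2 against 8.68 and 4.51 CPM in ML 1 and ML 3. In the Comma Dβ library all 4 luminal markers were more than 2-fold lower than the MaSC/basal mean, with Krt8 at 16.4 CPM, and the 4 basal markers were more than 2-fold lower as well.

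Milk and the lining of the mammary ducts carry proteins that hold back bacteria. LBP and CD14 hand bacterial lipopolysaccharide (LPS) to the receptor TLR4, while TLR2 senses bacterial lipoproteins, and both receptors signal to the transcription factor NF-κB. Lipocalin 2 and lactoferrin (the products of Lcn2 and Ltf) withhold iron from microbes, the polymeric immunoglobulin receptor carries IgA across the epithelium, and complement C3 coats microbes for uptake. Lysozyme M, the product of Lyz2, is best known from macrophages and neutrophils.

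On the GRCm38 assembly, which matches the mm10 build of the counts, Lcn2 spans chr2:32384637-32387739, Ltf chr9:111019292-111042766, Tlr2 chr3:83836272-83841824, Tlr4 chr4:66827551-66846581 and Lbp chr2:158306493-158332852. Saa3 spans chr7:46711998-46719615, Pigr chr1:130826684-130852249, C3 chr17:57203967-57228136 and Lyz2 chr10:117277541-117282272. All counts are over exons. The loci of the 10 genes overlapped 0 other counted genes, so that antisense or overlapping transcripts in the table could not add to them.

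Several of these genes are known targets of NF-κB, C/EBP and STAT factors, and the 250 bases before the annotated start were searched on both strands for a letter match of each. Windows of 7 members were read from RefSeq (GRCm38.p6). Lbp and Tlr4 had no window, and Cd14 was not read. The C/EBP letters TTGCNNAA were found in 4 of 7 (Lcn2, Ltf, Saa3, C3) and in 9.55% of all 27025 promoter windows. The κB motif was found in 1 of 7 (Tlr2, as an overlapping pair) and in 7.01% of all windows, and the STAT letters TTCNNNGAA in 0 of 7 and in 7.18%. The stretches with a match are shown so that each can be read in place. Those of Lcn2, Ltf, Saa3 and C3 belong to genes called higher in luminal cells, and that of Tlr2 to a gene not called. The call of Saa3 rests on few reads and is only described below. Pigr, also called higher in luminal cells, and Lyz2, not called, had no match. Whether a match goes with the level of a gene was not tested. Each stretch runs 5′ to 3′ along the gene's own strand, with the match in capitals. Such a match is a run of letters and does not show that a factor is bound.
Lcn2, chr2:32387908-32387989, minus strand: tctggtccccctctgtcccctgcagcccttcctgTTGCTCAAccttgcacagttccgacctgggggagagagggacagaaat
Ltf, chr9:111019177-111019264, plus strand: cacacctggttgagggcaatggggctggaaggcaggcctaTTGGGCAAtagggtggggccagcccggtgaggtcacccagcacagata
Saa3, chr7:46715757-46715786, minus strand: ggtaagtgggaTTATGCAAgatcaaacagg
C3, chr17:57228137-57228221, minus strand: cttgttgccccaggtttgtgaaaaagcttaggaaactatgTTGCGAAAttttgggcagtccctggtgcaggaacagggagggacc
Tlr2, chr3:83841768-83841790, minus strand: aggacacctGGGGAATTCCCaca
The match began 216 bases before the start used for the Lcn2 window, 75 before that of Ltf, 99 before that of Saa3, 45 before that of C3 and 173 before that of Tlr2. For Lcn2, Ltf and C3 this start is the 5′ end of the locus given above. The windows of Saa3 and Tlr2 were set on starts that lie 3939 and 216 bases inside their loci, so that both stretches fall within the locus and are not upstream of its 5′ end. All 82 bases of the Lcn2 stretch also lie in an annotated coding exon, whose gene and transcript were not recorded.

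The first comparison asked how the 10 genes differed between MaSC/basal cells and the mean of LP and ML. Of the 10, 8 were called higher in luminal cells and 0 lower at an adjusted p under 0.05 (edgeR quasi-likelihood test, Benjamini-Hochberg adjustment over all 15422 genes tested), where 30.5% of all genes tested were called higher and 31.2% lower. The median log2 fold change was 3.08 over the 10 genes and 0.01 over all genes. Saa3 is among the 8 although it passed the filter on low counts (over 0.5 CPM in at least 3 libraries) with no MaSC/basal library over 0.5 CPM, and without it 7 of 9 were called higher, with a median of 2.87. Tlr2 and Lyz2 were not called. At an unadjusted p under 0.05 the count was also 8. Without 1 library at a time, between 7 and 9 of the 10 were called in either direction. The 9 arose without LP 1, where Tlr2 was called lower in luminal cells. These are bulk samples, in which a smaller share of expressing cells and less RNA per cell cannot be told apart.

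**Figure D1:**
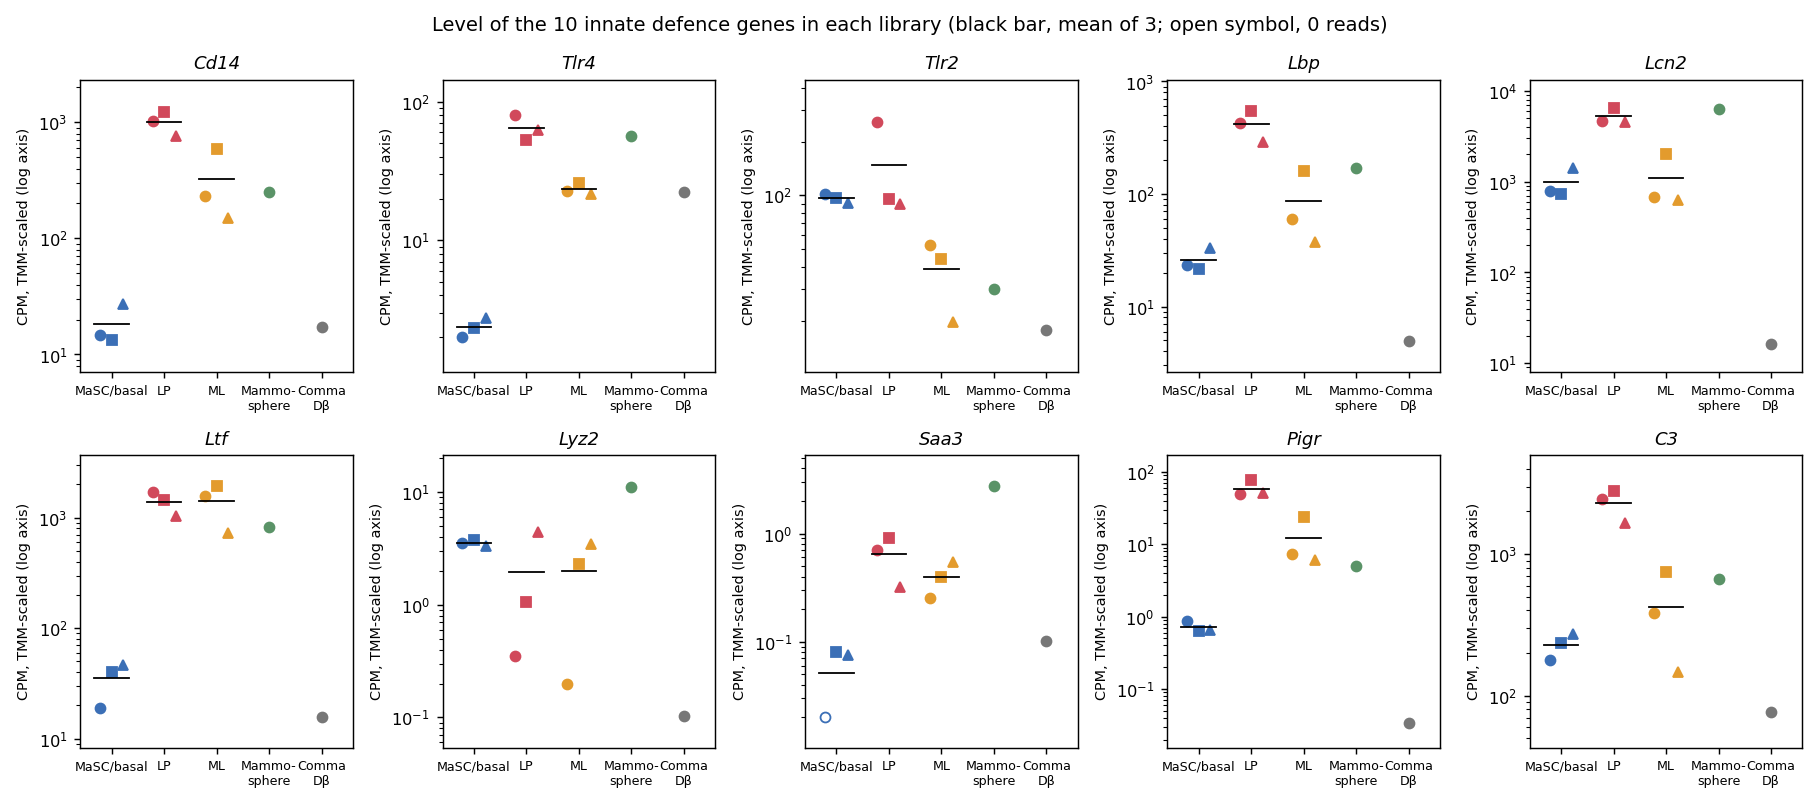
Level of each of the 10 genes in the 11 libraries, in TMM-scaled CPM on a log axis with a separate range for each gene; circles, squares and triangles are replicates 1, 2 and 3, the black bar is the mean of 3 libraries, and an open symbol marks 0 reads. For Cd14, Tlr4, Lbp, Pigr and Ltf every LP and ML library lies above every MaSC/basal library, whereas the Tlr2 and Lyz2 libraries of LP and MaSC/basal overlap. The share of all genes separated in this way was not counted.

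Cd14, Tlr4 and Lbp, which act together in sensing LPS, did not overlap between any of the 3 populations. This was not particular to them, since Pigr did not overlap either. The share of all genes separated in this way was not counted. Cd14, the co-receptor that presents LPS to TLR4, was at 14.6, 13.3 and 27.3 CPM in MaSC/basal, at 1032, 1239 and 768 CPM in LP and at 234, 586 and 151 CPM in ML. Every luminal library lay above every MaSC/basal library, and every LP library above every ML library. For Cd14 the luminal difference was 4.96 on the log2 scale (SE 0.53, edgeR adjusted p = 1.86e-05), which is 55.1-fold for LP and 17.6-fold for ML against MaSC/basal. Its difference between LP and ML was 1.65 on the log2 scale (SE 0.47, adjusted p = 0.0247). That call was lost without LP 1 (adjusted p = 0.0539), LP 2 (0.0692), ML 1 (0.0919) or ML 3 (0.0600), and LP was above ML in all 3 batches, by 2.12- to 5.08-fold.

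Tlr4, the LPS receptor itself, was the member with the smallest standard errors. It was at 2.02, 2.33 and 2.75 CPM in MaSC/basal, at 79.8, 52.7 and 62.0 CPM in LP and at 22.6, 26.0 and 21.6 CPM in ML. Its LP libraries were the highest and its MaSC/basal libraries the lowest. The luminal difference was 4.04 on the log2 scale (SE 0.19, edgeR adjusted p = 1.07e-07), or 27.4-fold for LP and 9.89-fold for ML. LP exceeded ML by 1.47 (SE 0.18, edgeR adjusted p = 8.69e-04).

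Lbp encodes a secreted acute phase protein that extracts LPS monomers for CD14 and is best known from liver. It was at 23.6, 21.4 and 33.3 CPM in MaSC/basal, at 426, 546 and 291 CPM in LP and at 60.1, 160 and 37.6 CPM in ML. LP was far above the others, with the lowest ML library close to the highest MaSC/basal library. The log2 fold change was 4.01 for LP (SE 0.52, edgeR adjusted p = 9.72e-05) and 1.72 for ML (SE 0.47, edgeR adjusted p = 0.00989). LP exceeded ML by 2.29 (SE 0.48, edgeR adjusted p = 0.00632).

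Tlr2, which senses lipoproteins together with TLR1 or TLR6, did not share this pattern. It was at 102, 96.6 and 90.5 CPM in MaSC/basal and at 53.0, 44.0 and 19.6 CPM in ML, while the LP libraries were at 258, 95.5 and 89.3 CPM. LP 1 alone stood above the MaSC/basal libraries, and every ML library lay below them. The LP difference was 0.61 (SE 0.43, edgeR adjusted p = 0.247), turned to -0.05 without LP 1, and was called when the library batch was fitted as a replicate block (0.74, adjusted p = 0.0469). Tlr2 was lower in ML than in MaSC/basal by a log2 fold change of -1.31 (SE 0.44, edgeR adjusted p = 0.0260). This call was lost without ML 3 (adjusted p = 0.0693) or without MaSC/basal 1, 2 or 3 (0.0621, 0.0531 and 0.0520). Tlr2 was higher in LP than in ML by 1.92 (SE 0.45, edgeR adjusted p = 0.0101), in 3 of 3 batches. Against the mean of LP and ML it was called lower only when LP 1 was left out (adjusted p = 0.0494).

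Lcn2 and Ltf encode the iron-withholding proteins. Lcn2, whose product binds bacterial siderophores, was at 4700, 6558 and 4544 CPM in LP, at 788, 738 and 1427 CPM in MaSC/basal and at 685, 2001 and 624 CPM in ML. All LP libraries were above all others, and the MaSC/basal and ML libraries overlapped. LP exceeded MaSC/basal by 2.42 (SE 0.47, edgeR adjusted p = 0.00148) and ML by 2.26 (SE 0.47, edgeR adjusted p = 0.00614), while ML and MaSC/basal differed by 0.16 (SE 0.45, edgeR adjusted p = 0.773). The mean of LP and ML exceeded MaSC/basal by 1.29 (SE 0.41, edgeR adjusted p = 0.0196), a call that was lost without MaSC/basal 1 (0.0851) or MaSC/basal 2 (0.0873).

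Ltf, which encodes the iron-binding milk protein lactoferrin, was at 19.0, 40.2 and 46.5 CPM in MaSC/basal, at 1702, 1449 and 1033 CPM in LP and at 1558, 1921 and 732 CPM in ML. It was higher in luminal cells by 5.31 on the log2 scale (SE 0.46, edgeR adjusted p = 4.50e-06), the largest such difference among the 10. The LP and ML libraries overlapped throughout, with a difference of -0.01 (SE 0.40, edgeR adjusted p = 0.989) and LP above ML in 2 of 3 batches. Unlike Lcn2, Ltf was thus at a similar mean in both luminal fractions, 1394 ± 338 CPM in LP and 1404 ± 610 CPM in ML (SD, n = 3 each).

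Pigr and C3 are the members that act through antibodies and complement. Pigr was at 0.88, 0.64 and 0.66 CPM in MaSC/basal, at 49.2, 76.9 and 50.7 CPM in LP and at 7.38, 23.7 and 6.06 CPM in ML. It had the largest difference of LP from MaSC/basal among the 10, at 6.33 (SE 0.57, edgeR adjusted p = 8.99e-06, 80.6-fold), and it was higher in LP than in ML by 2.23 (SE 0.46, edgeR adjusted p = 0.00599). No library of one population overlapped another. C3, the central component of complement, was at 178, 234 and 272 CPM in MaSC/basal, at 2461, 2772 and 1650 CPM in LP and at 383, 744 and 147 CPM in ML. LP was separate from both other populations, by 3.33 from MaSC/basal (SE 0.51, edgeR adjusted p = 3.18e-04) and by 2.43 from ML (SE 0.49, edgeR adjusted p = 0.00555). ML and MaSC/basal overlapped and were not called (0.90, SE 0.47, edgeR adjusted p = 0.127). With the batch as a replicate block that difference was called (1.17, adjusted p = 0.00678), as it was without ML 3 (adjusted p = 0.00725).

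Saa3, an acute phase serum amyloid A made outside the liver, was close to the limit of detection. MaSC/basal libraries held 0, 4 and 4 reads, LP libraries 20, 49 and 6, and ML libraries 9, 30 and 12, which is at most 0.92 CPM in a sorted library. The gene passed the filter only through 2 LP libraries, 1 ML library and the mammosphere library, so that a higher level in luminal cells was built into its being tested. The fitted luminal difference of 3.29 (SE 0.66), against 8 MaSC/basal reads in all, is therefore given as a description. LP and ML were not called different (0.79, SE 0.57, edgeR adjusted p = 0.319). The paralogs Saa1 and Saa2, counted separately, were higher in LP than in MaSC/basal too, at 16.9, 51.8 and 20.3 CPM and at 10.6, 33.6 and 11.3 CPM in LP. How reads shared by these related genes were assigned is not given in the sources used here, so the split among them is uncertain.

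LP and ML were then compared as luminal fractions. Of the 10 genes, 7 were called higher in LP (C3, Lbp, Lcn2, Pigr, Tlr2, Cd14 and Tlr4) and 0 higher in ML, where 14.3% of all genes tested were higher in LP and 17.5% lower. The median log2 fold change was 1.78 over the 10 genes and -0.01 over all genes. In each of the 7 every LP library lay above every ML library, and LP was above ML in all 3 batches. The 7 were picked by a test on these same libraries, so that this separation is a description and no further support. The share of all genes separated in this way was not counted. Against MaSC/basal, LP had 8 genes called higher and 0 lower (28.0% and 29.4% of all genes), and ML had 6 called higher and 1 lower, Tlr2 (29.7% and 28.9% of all genes). Both counts of genes higher than in MaSC/basal include Saa3, and without it they were 7 of 9 for LP and 5 of 9 for ML.

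**Figure D2:**
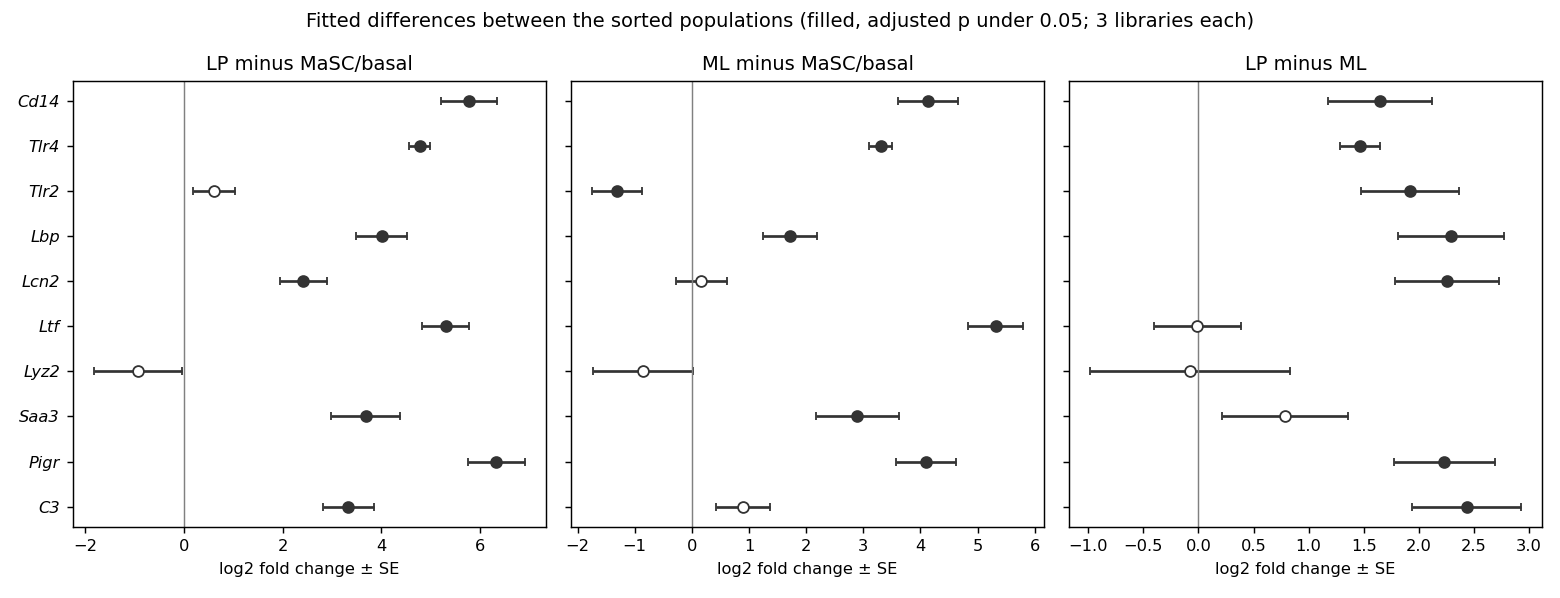
Fitted log2 fold changes with standard errors for LP against MaSC/basal, ML against MaSC/basal and LP against ML, from 3 libraries of each population; filled points passed an adjusted p of 0.05. Lcn2 and C3 are filled in both comparisons that involve LP and open for ML against MaSC/basal, whereas Ltf lies at 5.31 and 5.32 against MaSC/basal and at -0.01 between LP and ML.

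ML 2 was the highest ML library for 7 of the 10 genes (Lcn2, Ltf, Cd14, Tlr4, Lbp, Pigr, C3), and it was also the highest for all 4 progenitor markers, with Kit at 298 CPM against 164 and 148 CPM. Without ML 2 the 7 genes called higher in LP than in ML, which include Tlr2 and not Ltf, were called again. The differences were larger for Lcn2 (3.00), Lbp (3.10), Pigr (3.12), C3 (3.11) and Cd14 (2.39). For each of these genes ML 2 was the highest ML library. Larger differences without it therefore follow from leaving it out and are no further support. The part of progenitor cells in the ML 2 values was not tested.

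Compared per kilobase of exon within LP, Lcn2 led at 6175 ± 1314 CPM per kb (SD, n = 3). Cd14 (677 ± 158), Ltf (509 ± 123) and C3 (447 ± 113) came next. Within each of the 3 LP libraries Cd14 exceeded C3, by 1.44- to 1.60-fold, and Ltf, by 1.11- to 1.57-fold, while Ltf was above C3 in 2 of 3. They were followed by Lbp at 167 ± 50.6 and Tlr2 at 51.7 ± 33.5 CPM per kb. Tlr4 (16.8 ± 3.58) was above Pigr (15.3 ± 4.05) in 2 of 3 LP libraries and Lyz2 (1.84 ± 2.07) above Saa3 (1.22 ± 0.570) in 1 of 3, so that neither pair had a fixed order. In MaSC/basal cells the order began with Lcn2 at 1154 ± 450, C3 at 44.4 ± 9.28 and Tlr2 at 33.8 ± 2.04 CPM per kb. Together the 10 genes took 0.797% to 1.13% of the reads in LP, 0.179% to 0.547% in ML and 0.112% to 0.183% in MaSC/basal.

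Lyz2 did not follow the other members. It was at 3.50, 3.75 and 3.34 CPM in MaSC/basal, at 0.35, 1.05 and 4.43 CPM in LP and at 0.20, 2.29 and 3.46 CPM in ML. The MaSC/basal libraries were even, while the luminal libraries spread over more than 10-fold, lowest in batch 1 and highest in batch 3. Lyz2 was not called between luminal and MaSC/basal cells (-0.89, SE 0.74, edgeR adjusted p = 0.317). With the batch as a replicate block it was called lower in luminal cells (-1.99, adjusted p = 0.0107), in LP (-2.13, 0.0196) and in ML (-1.84, 0.0264).

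Ptprc had the same order of libraries within LP (0.04, 0.32 and 0.85 CPM) and within ML (0, 0.29 and 1.18 CPM), and stood at 1.09, 0.32 and 1.66 CPM in MaSC/basal. Its counts were few, at 1, 17 and 16 reads in LP and 0, 22 and 26 reads in ML. Its luminal difference was -1.34 (SE 0.89, edgeR adjusted p = 0.216), which became -2.55 once the batch was a replicate block (adjusted p = 0.0206), and that fit also called it lower in LP (-2.58, 0.0395) and ML (-2.51, 0.0416). C1qa, a complement gene made mainly by macrophages, shared the order as well, at 0.247, 0.786 and 1.87 CPM in LP and 0.226, 0.904 and 1.64 CPM in ML. In 6 of the 10 macrophage and dendritic markers LP 3 was the highest LP library and ML 3 the highest ML library, which was so for 1 of the 10 members, Lyz2. It was also so for 4 of 4 mature luminal markers and for 2 of 9 leukocyte and lymphocyte markers. Cd68, the best expressed of the macrophage list, was highest in LP 1 (19.7 CPM) and ML 1 (6.31 CPM). The share of all genes with this order was not counted.

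**Figure D3:**
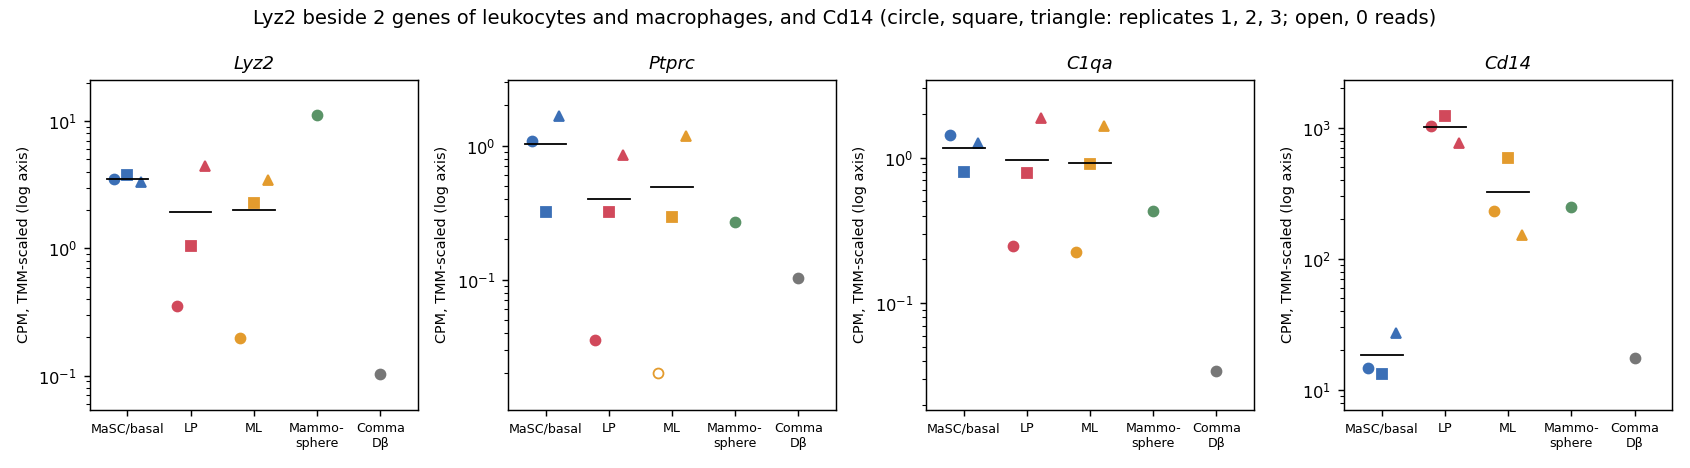
CPM on a log axis for Lyz2, for Ptprc and C1qa as genes of leukocytes and macrophages, and for Cd14, in each of the 11 libraries. Within LP and within ML the first 3 genes are lowest in replicate 1 and highest in replicate 3, whereas Cd14 is highest in replicate 2 and lies between 768 and 1239 CPM in LP.

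Marker lists of other cells were summed in each library. The 9 leukocyte and lymphocyte markers came to between 2.67 and 4.28 CPM in MaSC/basal, 1.09 and 1.97 CPM in LP and 0.679 and 2.51 CPM in ML, with up to 4 of the 9 at 0 reads in an LP library and up to 5 in an ML library. The 10 macrophage and dendritic markers came to 11.9 to 16.6 CPM in MaSC/basal, 17.3 to 26.8 CPM in LP and 9.36 to 15.2 CPM in ML, of which Cd68 alone was 12.3 to 19.7 CPM in LP. Cd68 was higher in LP than in ML (1.58, edgeR adjusted p = 0.00110). The 8 neutrophil markers came to 1.07 to 1.91 CPM in MaSC/basal, 7.58 to 36.8 CPM in LP and 1.00 to 15.4 CPM in ML. S100a8 made up nearly all of this in LP (14.5, 36.6 and 7.42 CPM), while S100a9, its usual partner in neutrophils, was at or under 0.0534 CPM there and Mpo at or under 0.0705 CPM. Endothelial markers fell from 39.9 to 84.5 CPM in MaSC/basal to 7.12 to 20.8 CPM in LP (4 of 4, Pecam1, Cdh5, Tie1 and Kdr, called lower), and were at 5.23 to 34.2 CPM in ML (1 of 4, Kdr, called lower). Adipocyte markers were at 30.4 to 69.2 CPM in MaSC/basal, 4.66 to 16.7 CPM in LP and 3.17 to 36.2 CPM in ML. Fibroblast markers were at 407 to 536 CPM in MaSC/basal, 187 to 768 CPM in LP and 352 to 641 CPM in ML. Among the members, Lcn2, Ltf, Cd14 and C3 were each at 768 CPM or more in every LP library. Lyz2 was at or under 4.43 CPM there and Saa3 at or under 0.917 CPM, with the other members in between. Levels of different genes do not measure a share of leukocyte RNA. The part of leukocyte RNA in the values of any of the 10 members, Lyz2 and Saa3 included, was not tested.

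Mammospheres and Comma Dβ cells were set beside the MaSC/basal mean. With 1 library each there is no test, and differences are of log2 CPM with a prior count of 2. Mammosphere levels of 9 of the 10 genes were over 2-fold higher than the MaSC/basal mean and 1, Tlr2, was over 2-fold lower, where 19.7% of all genes were over 2-fold higher and 20.0% lower. The median difference was 2.73 over the 10 genes and -0.01 over all genes. Both the count of 9 and the median include Saa3, which passed the filter with no MaSC/basal library over 0.5 CPM. A level above MaSC/basal was therefore favoured for it beforehand. Markers of other cells moved in the mammosphere library too. The 5 fibroblast markers came to 1730 CPM, against 407 to 536 CPM in MaSC/basal, and 4 of the 5 (Col1a1, Col1a2, Pdgfra and Lum) were over 2-fold higher. The 10 macrophage and dendritic markers came to 31.8 CPM, the highest sum of the 11 libraries, and the 8 neutrophil markers to 31.4 CPM, of which S100a8 was 24.4 CPM. Leukocyte and lymphocyte markers (0.699 CPM), endothelial markers (10.3 CPM) and adipocyte markers (8.00 CPM) were below every MaSC/basal library. The part of these cells in the mammosphere values was not tested.

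The largest mammosphere differences were those of Saa3, Ltf, Tlr4 and Cd14. That of Saa3 is set against 8 MaSC/basal reads in all and is given as a description. Ltf was at 825 CPM, 4.65 above the MaSC/basal mean of the log2 values (SD of the 3 MaSC/basal libraries 0.69). Tlr4 was at 56.8 CPM (4.57, SD 0.22), inside the range of LP, and Cd14 at 249 CPM (3.84, SD 0.56), inside the range of ML. Lcn2 reached 6246 CPM (2.73, SD 0.52), also inside the range of LP, and Lbp 171 CPM (2.73, SD 0.33), above the ML libraries and below the LP libraries.

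Pigr (5.05 CPM), C3 (665 CPM) and Tlr2 (29.9 CPM) completed the set. Pigr lay above all MaSC/basal libraries and below all ML libraries, C3 within ML, and Tlr2 within ML and below all MaSC/basal libraries (-1.68, SD 0.09). Saa3 and Lyz2 were above all 9 sorted libraries, at 2.75 and 11.1 CPM. Saa3 had 122 reads against 8 in the 3 MaSC/basal libraries, a ratio of 55.8 after TMM scaling of the library totals (95% exact interval 27.4 to 132, counting error only). Beside Lyz2, the macrophage list went both ways in that library. Of its 6 tested genes, Cd68 (23.6 CPM), Csf1r (5.25 CPM) and Aif1 (1.29 CPM) were over 2-fold higher than the MaSC/basal mean and above all 9 sorted libraries, whereas C1qa (0.43 CPM), C1qc (0.18 CPM) and Mrc1 (0.27 CPM) were over 2-fold lower. Ptprc was at 0.27 CPM and S100a9 at 6.31 CPM.

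**Figure D4:**
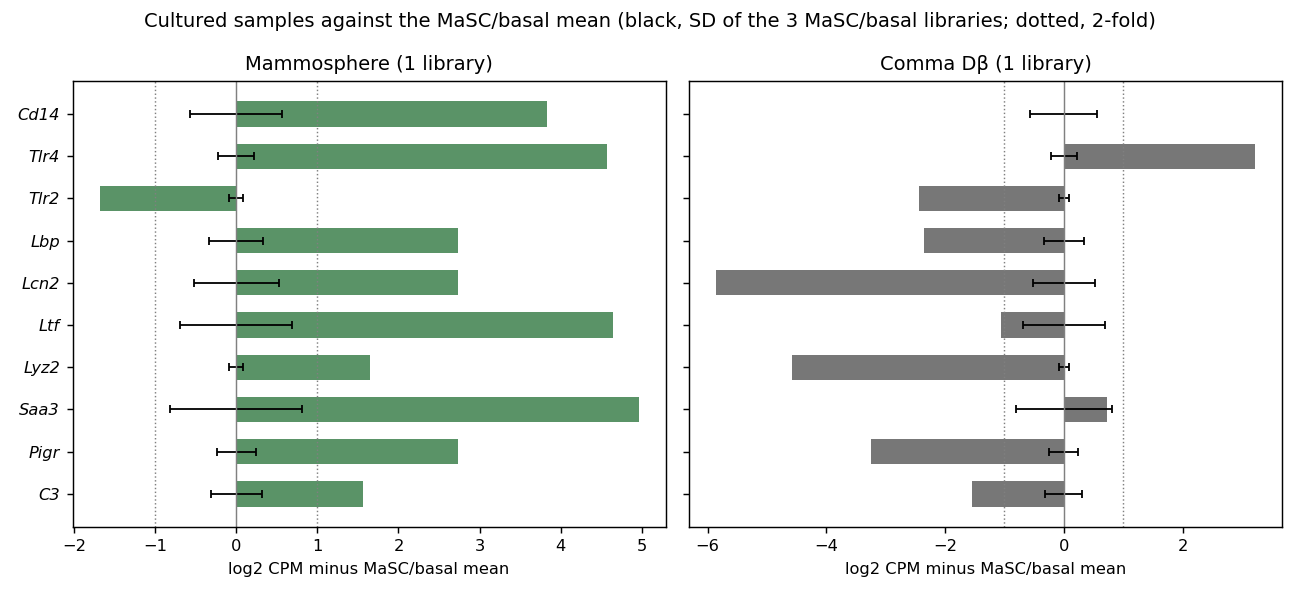
Difference in log2 CPM between each cultured library and the MaSC/basal mean for the 10 genes, with the SD of the 3 MaSC/basal libraries around 0 in black and 2-fold marked by dotted lines. Bars point to the right for 9 genes in mammospheres, whereas in Comma Dβ only Tlr4 passes 2-fold to the right and 7 genes pass it to the left.

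Comma Dβ cells went the other way. Of the 10 genes, 7 were over 2-fold lower than the MaSC/basal mean and 1, Tlr4, was over 2-fold higher, where 24.8% of all genes were over 2-fold lower and 16.9% higher. Lcn2 was at 16.2 CPM (-5.85, SD 0.52), against at least 624 CPM in every sorted library. C3 (77.0 CPM), Ltf (15.8 CPM), Lbp (4.97 CPM) and Tlr2 (17.7 CPM) were likewise below all 9 sorted libraries. Ltf passed 2-fold by a small margin (-1.06, SD 0.69), and over MaSC/basal libraries left out in turn its difference ran from -1.45 to -0.81, so that the count of 8 genes past 2-fold was 7 in some of these.

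Cd14 (17.4 CPM) was at the MaSC/basal level, with a difference of -0.0020 (SD 0.56), and Tlr4 reached 22.4 CPM (3.23, SD 0.22), inside the range of ML. The remaining genes rested on few reads. Pigr had 1 read, a ratio to MaSC/basal of 0.0464 (95% exact interval 0.00116 to 0.263, counting error only), Lyz2 had 3 reads (0.0290, 0.00596 to 0.0852), and Saa3 had 3 reads (2.07, 0.354 to 8.63), so that its ratio could lie on either side of 1. Ptprc had 3 reads as well (0.0986, 0.0201 to 0.293).

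Lists of related genes were read in the same fits. Of 15 tested genes in the LPS and Toll-like receptor pathway (25 listed, without the members), 12 were called higher in luminal cells and 0 lower (30.5% and 31.2% of all genes), with a median log2 fold change of 1.16. Irak2, a kinase of the receptor complex, rose from 4.56, 6.26 and 4.69 CPM in MaSC/basal to 114, 62.3 and 76.5 CPM in LP (luminal difference 3.67, edgeR adjusted p = 4.89e-07). Ly96, which encodes the LPS-binding partner of TLR4, was low but higher in luminal cells (1.63, edgeR adjusted p = 1.06e-04), at 4.27, 5.82 and 4.75 CPM in LP. Tollip (1.16) and the ubiquitin ligase Traf6 (1.19), both among the best expressed of the list, were called higher in luminal cells. The adaptor Myd88 and the kinase Irak1 were not called, at 0.06 and -0.01. Irak3, a brake on this pathway, was higher in LP than in ML (1.499, edgeR adjusted p = 0.00547). In LP against ML 5 of the 15 were called higher (Irak3, Tlr5, Irak2, Traf6 and Tollip) and 2 lower (Irak4 and Tirap), where 14.3% and 17.5% of all genes were. The 5 became 2 without ML 1 or ML 3 and 3 without LP 1, and the 2 became 0 without LP 1, LP 2, ML 1 or ML 3 and 1 without LP 3.

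Of 14 NF-κB genes, 10 were called higher in luminal cells and 0 lower, with a median of 0.95 (30.5% and 31.2% of all genes). The largest difference was that of Tnfaip3, which encodes an inhibitor of NF-κB signalling. It was at 45.0, 41.0 and 50.2 CPM in MaSC/basal and at 1081, 346 and 512 CPM in LP (luminal difference 3.18, edgeR adjusted p = 8.17e-05), and Nfkbia, which encodes the inhibitor IκBα, had a luminal difference of 2.82 (edgeR adjusted p = 8.05e-06). Nfkbib, which encodes the related IκBβ, was not called (0.27, edgeR adjusted p = 0.0934). The subunits Rela (0.67), Nfkb1 (1.13) and Nfkb2 (0.77) were called with smaller differences. In mammospheres the list did not follow the members, with 1 of 14 genes (Ikbkg) over 2-fold higher and 5 (Rel, Bcl3, Nfkb2, Rela and Nfkb1) over 2-fold lower than the MaSC/basal mean. Of all genes tested, 19.7% were over 2-fold higher and 20.0% over 2-fold lower in this single library. Nfkbia was at 143 CPM in mammospheres, within the MaSC/basal libraries.

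Acute phase genes split between the luminal fractions. Of 10 tested, 3 were called higher in LP than in ML and 3 lower, where 14.3% and 17.5% of all genes were. In luminal cells 6 of 10 were called higher and 1 lower, where 30.5% and 31.2% of all genes were. Hp, which encodes the haemoglobin scavenger haptoglobin, was 6.07 higher (edgeR adjusted p = 6.83e-08), and Serpina3n, a protease inhibitor, was 5.36 lower in luminal than in MaSC/basal cells on the log2 scale (log2 fold change -5.36, edgeR adjusted p = 2.11e-06). The amyloid genes Saa1 (3.34) and Saa2 (3.13) and the copper carrier Cp (2.36) were higher in LP than in ML, whereas the fibrinogen chains Fgg (-2.20) and Fgb (-1.56) and the haem binder Hpx (-1.32) were higher in ML, of which Hpx alone was still called without LP 2. Fgb ran from 428, 294 and 484 CPM in ML to 61.2, 112 and 235 CPM in LP and at most 1.80 CPM in MaSC/basal.

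**Figure D5:**
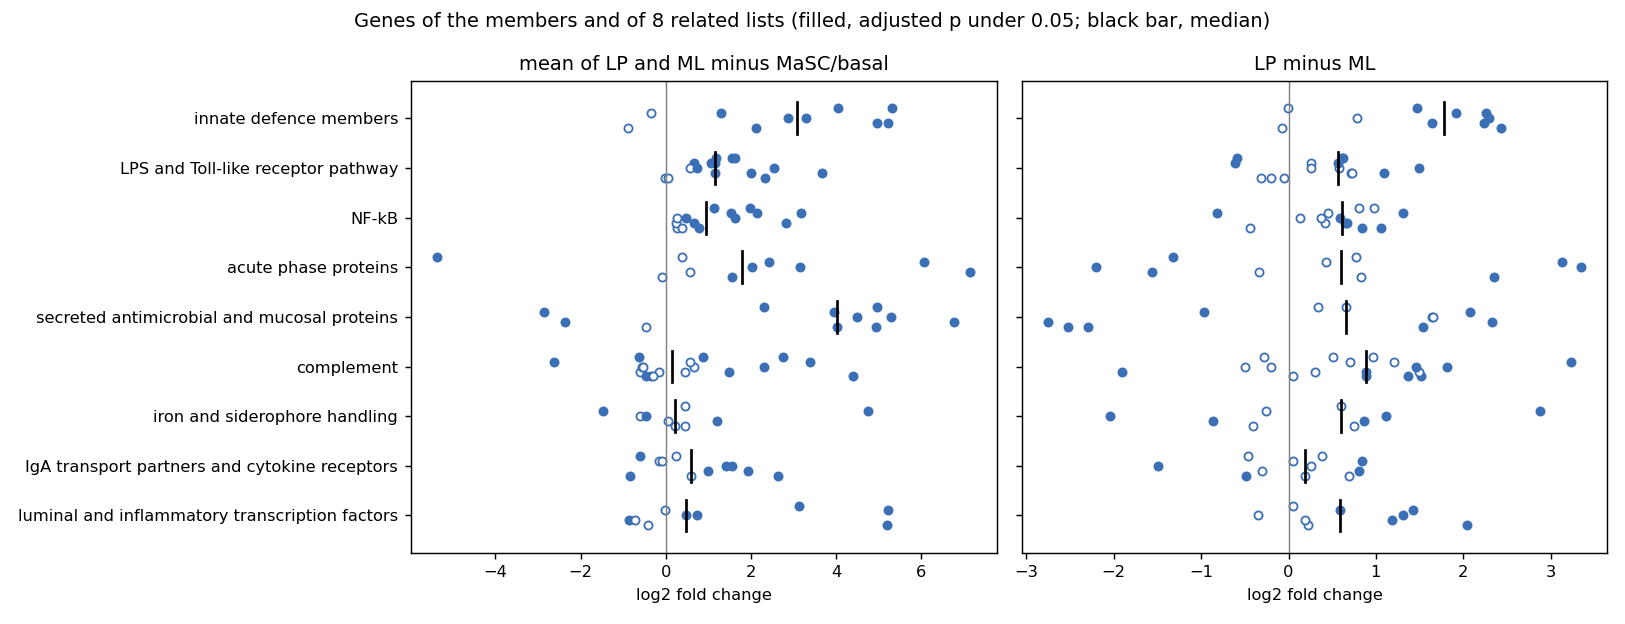
Fitted log2 fold changes of the 10 genes and of the tested genes of 8 related lists, for the mean of LP and ML against MaSC/basal (left) and for LP against ML (right); filled points passed an adjusted p of 0.05 and black bars are medians. All 15 tested LPS and Toll-like receptor genes other than Irak1 lie above 0 on the left, while the acute phase and secreted lists hold called genes on both sides on the right.

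Secreted antimicrobial and mucosal genes were mostly higher in luminal cells, with 8 of 11 tested genes called higher in luminal cells and 2 (Slpi and Lpo) lower (30.5% and 31.2% of all genes). Of the 8, S100a8 and Reg3g had no MaSC/basal library over the filter of 0.5 CPM, and without them 6 of 9 were called higher. Slpi, a protease inhibitor of mucosal surfaces, was at 589, 606 and 587 CPM in MaSC/basal and at or under 137 CPM in LP and ML (-2.86, edgeR adjusted p = 8.51e-07). Muc1 (1.64), Muc15 (2.08), Plet1 (1.54) and Lpo (2.33) were called higher in LP than in ML, and Wfdc2 (-2.52), Reg3g (-2.75), Defb1 (-2.29) and Slpi (-0.97) higher in ML. That is 4 of 11 tested genes each way, where 14.3% of all genes were called higher in LP and 17.5% lower. Lpo had no ML library over 0.5 CPM. The count of 4 higher in LP became 2 without ML 1 or LP 2 and 7 without ML 2. Reg3g, a bactericidal lectin, reached 35.4, 16.2 and 51.4 CPM in ML.

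Complement genes other than C3 were mixed, with 6 of 18 (33.3%) called higher in luminal cells and 3 lower, near the 30.5% of all genes called higher, and a median of 0.15. Those higher were Cd55 (4.39), C9 (3.39), C2 (2.76), Cfb (2.31), Masp2 (1.48) and Cd46 (0.88), and those lower were C1s1 (-2.62), Cfp (-0.64) and C4b (-0.47). C9, Masp2 and Cd46 passed the filter on low counts with no MaSC/basal library over 0.5 CPM, so that a higher level in luminal cells was favoured before the test. Without them 3 of 15 were called higher and the median was -0.30. Serping1 (-0.52) and Cd59a (-0.16), among the best expressed of the list, were not called. The count of 3 lower was 1 without LP 1, LP 3, ML 1 or MaSC/basal 3. Between LP and ML, 7 of 18 were called higher in LP (14.3% of all genes), among them Cfb, the protease partner of C3 in the alternative pathway (1.82, edgeR adjusted p = 0.0152), and 1, Masp2, was called lower. C9, with no ML library over 0.5 CPM, is one of the 7, and Masp2 had no LP library over it. Without LP 2 the 7 became 4.

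Of 9 iron-handling genes, 2 were called higher in luminal cells (Trf and the iron exporter Slc40a1) and 2 lower (Slc11a1 and Tfrc), which is 22.2% each way and below the 30.5% and 31.2% of all genes. The ferritin genes Fth1 (0.46) and Ftl1 (0.06) were not called. Trf, which encodes transferrin, an iron carrier of the same protein family as lactoferrin, was at 32229, 33501 and 17589 CPM in LP, at 2848, 6937 and 1525 CPM in ML and at 368, 386 and 379 CPM in MaSC/basal. It differed between LP and ML by 2.88 (edgeR adjusted p = 0.00310), where Ltf did not. The count lower was 1 without MaSC/basal 2 or MaSC/basal 3, and the count higher was 4 with the replicate block.

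Of 11 IgA transport and cytokine receptor genes, 5 were called higher in luminal cells and 2 lower, which is 45.5% and 18.2% beside the 30.5% and 31.2% of all genes. Those higher were the IL-17 receptor chain Il17re (2.64, edgeR adjusted p = 6.68e-07), Il1r1 (1.94), Ifngr2 (1.56), Il22ra1 (1.41) and Ifngr1 (1.00), and those lower were Tnfrsf1a (-0.83) and Osmr (-0.61). Il22ra1 had no MaSC/basal library over 0.5 CPM, and without it 4 of 10 were called higher. Osmr was at the threshold (edgeR adjusted p = 0.04999), and the 2 became 1 in 7 of 9 fits with a library left out and with the replicate block. Of 9 transcription factors, 5 were called higher in luminal cells (among them Ehf 5.22, Elf5 5.21, Elf3 3.14 and Cebpd 0.73) and 1, Cebpb, lower (-0.86, edgeR adjusted p = 0.0101), beside 30.5% and 31.2% of all genes. Without MaSC/basal 1 the 5 became 3, and without LP 1 or MaSC/basal 3 the 1 became 3. Cebpb, Cebpd, Stat3, Ehf and Elf5 were called higher in LP than in ML. These are 5 of 9, with 0 called lower, where 14.3% and 17.5% of all genes were. Stat3 was at 1555, 1696 and 1345 CPM in LP and did not pass between luminal and MaSC/basal cells (-0.02, edgeR adjusted p = 0.940).

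Among 11187 other genes with a mean over 5 CPM in the sorted libraries, those closest to the mean profile of the 10 members over the 11 libraries were Kcnq1 (Pearson r = 0.993), Mgst1 (0.990), Myo6 (0.990), Mfsd6 (0.989) and Timd2 (0.988). The 11 points share 5 sample types, so that these values describe a shared ranking of types. Kcnq1, a potassium channel gene, was at 24.8, 19.7 and 12.6 CPM in LP, 4.04, 7.60 and 1.78 CPM in ML, 9.74 CPM in mammospheres and at or under 0.58 CPM in MaSC/basal. Mgst1, a glutathione transferase gene, was more evenly spread, at 578, 602 and 503 CPM in LP and 80.8, 95.2 and 95.8 CPM in MaSC/basal. Timd2 was at 31.7, 34.8 and 25.4 CPM in LP and at or under 0.98 CPM in MaSC/basal.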

How the data were processed

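Reads were aligned to mm10 with Rsubread and assigned to Entrez genes with featureCounts by the authors, who deposited raw counts and exon lengths per gene, neither normalized nor filtered. Strand setting and handling of multiply mapping reads are not given in the sources used here. Per the labels, batch 1 used another version of the library kit than batches 2 and 3. Symbols came from a RefSeq table (25275 of 27179 genes). The fits used edgeR 4.0.16 under R 4.3.3: genes over 0.5 CPM in at least 3 libraries were kept (15422), TMM factors computed, and a quasi-likelihood model with 1 mean for each of 5 sample types fitted to all 11 libraries. SE is the log2 fold change divided by the square root of F. "Luminal" is the mean of LP and ML on the log2 scale. The 3 libraries of a population were described as independent samples. The main fit takes them as unpaired, so its p-values set a difference against a spread that includes differences between batches and kit versions.

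Same-batch libraries of different populations shared a deviation from their group means (median r 0.24 over 9 pairs, -0.10 over 18 other pairs), and the labels mark the batch, so that fits with the batch as a replicate block pair them. The members and lists were chosen with earlier results of these data known. Named genes are the members, Ptprc, up to 4 genes of highest level and the largest change of each list, all genes of counts of 5 or fewer, paralogs, and the 5 closest profiles. Markers of other cells that this rule names are given mainly as sums, and a single further gene that it names is not reported here. Ly96, C2, Cfb, Cd46, Masp2, Nfkbib, Csf1r and Mrc1 were chosen after their values were seen. Alternatives included DESeq2 1.42.0 and limma voom (limma 3.58.1). Counts without genes for which one side of a comparison had no library over 0.5 CPM were added after the data were seen. Scripts were tested on simulated data.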

Additional observations from a re-analysis of the deposited data

How the results depend on the processing

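At an adjusted p under 0.001 together with a log2 fold change over 2, 5 of the 10 genes were called between luminal and MaSC/basal cells, 4 between ML and MaSC/basal and 0 between LP and ML, against 8, 7 and 7 at an adjusted p under 0.05. The share of all genes past the stricter threshold was not counted, so whether these counts are many or few is not known. In the other alternatives (DESeq2 size factors, no TMM scaling, filters of 1 CPM or none, limma voom, DESeq2, the sorted libraries alone, an adjusted p of 0.01, and each library left out) the counts of members called stayed within 1.5 times. Saa3 fell out under the filter of 1 CPM. The library batch as a replicate block changed the calls of Lyz2, Ptprc, Tlr2 (LP against MaSC/basal) and C3 (ML against MaSC/basal) given above and of no other member.

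Differences that were not called changed sign. That of Ltf between LP and ML became 0.0116 with DESeq2 size factors and 0.0116 with DESeq2, and 0.10 with limma voom and with the replicate block (0.0985), and ran from -0.32 to 0.28 without 1 library. That of Lcn2 between ML and MaSC/basal became -0.034 with limma voom and ran from -0.59 to 0.52 without 1 library, and that of Ptprc between LP and ML became 0.53 with limma voom and ran from -1.11 to 1.06. Without 1 library, Lyz2 between LP and ML ran from -1.40 to 0.50 and Tlr2 between LP and MaSC/basal from -0.046 to 0.88. The cause was not tested. At the depth of the shallowest library 3 reads are 0.160 CPM, which limits what can be said of Saa3 and Ptprc in all sorted libraries.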

Other observations

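Some other defence genes stood above all 9 sorted libraries in the mammosphere library. Pglyrp1, which encodes a peptidoglycan recognition protein, was at 132 CPM there and at or under 4.03 CPM in the 9 sorted libraries. Orm1, an acute phase gene, was at 21.4 CPM against at most 0.226 CPM, and S100a9 at 6.31 CPM against at most 0.102 CPM. Il22ra1, a receptor chain for IL-22, was at 5.10 CPM against at most 1.02 CPM. Wfdc18 was at 285 CPM, within the range of LP, while Plet1 was at 148 CPM against at least 1562 CPM in the luminal libraries. These genes were picked after their values were seen, and a single library gives them no replicate check.

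In sorted LP cells S100a8 was found almost without S100a9. S100a8 was at 7.42 CPM or more in the LP libraries and at or under 0.415 CPM in MaSC/basal, and S100a9 had too few reads to be tested. This was not particular to LP. In ML S100a8 was at 2.04, 15.2 and 0.911 CPM, and LP and ML were not called different (1.65). S100a8 passed the filter on low counts with no MaSC/basal library over 0.5 CPM, so that its difference is given as a description.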
